A study of Homo sapiens with 6 samples.

Results

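Cytosolic heat shock proteins and the chaperonin were followed at the mRNA level, as a set of 42 gene names taken by name from the deposited table of all genes. The names gave 43 of its 58302 gene identifiers, because *HSPA14* is listed under 2 of them. They were 2 heat shock factors, 8 members of the HSP70 family, 3 of HSP110, 2 of HSP90, 3 small heat shock proteins, 8 J-domain proteins, 3 BAG proteins, 5 HSP90 co-chaperones and 8 chaperonin subunits. RNA-seq libraries were made from cells labelled A549, a human lung adenocarcinoma line, in a study of carbazole derivatives that carry a pyrimidine ring and of mitochondrial homeostasis. The tested cells had received S541, a compound the labels also call 5n, at 1.0 µM for 48 h (3 libraries), and the control cells had received its solvent DMSO for 48 h (3 libraries). Both groups were the same labelled line in the same medium with serum and antibiotics, with no genetic change named in the labels. The labels do not say whether the 3 libraries of a group came from separate cultures, so p-values cover only the spread among these libraries, and that spread may be technical.

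Chaperones bind unfolded proteins and let them fold. HSP70 proteins are loaded with clients by J-domain proteins, release them with the help of HSP110 and BAG proteins, and pass some of them to HSP90, whose cycle is steered by co-chaperones. Small heat shock proteins hold unfolded proteins without using ATP, and the chaperonin encloses newly made actin, tubulin and other proteins in a ring-shaped chamber. In the heat shock response the factor HSF1 binds inverted repeats of a short GAA unit, the heat shock element, in the promoters of many of these genes.

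The promoter windows of genes in which an exact form of that element was found are given first. They name members with this form of the known landmark of heat shock control, and not all members that may have it. Windows ran 250 bases before to 50 after each start in RefSeq, build GRCh38.p14, and 37 of the 42 names matched. The search was for 3 adjoining units (GAANNTTC continued by NNGAA) on either strand, and it was met by 7 of the 37 members (18.9%), against 0.608% of all 27305 genes with a window and 0.448% of the 10492 tested genes. A gene counted if any of its windows held a match. By window the shares were 13.2% of 53 member windows and 0.49% of all 35116 windows. The members were chosen by name as heat shock and chaperonin genes, so their higher share is a description and not a test. The 7 were *HSPA6*, *HSPA8*, *HSP90AA1*, *HSP90AB1*, *DNAJA1*, *DNAJB6* and *CHORDC1*. In the stretches printed here 5′ to 3′ on the gene's own strand, capitals mark the matched units, and *HSPA8* and *HSP90AB1* each held 2 matches and *CHORDC1* 3 that overlap. The match of *DNAJA1* lies after the start, at bases 4 to 16 of the transcribed part, and is not printed.
HSPA6 (chr1:161524446-161524498, + strand): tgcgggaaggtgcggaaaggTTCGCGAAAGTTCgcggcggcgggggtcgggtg
HSPA8 (chr11:123062159-123062386, - strand): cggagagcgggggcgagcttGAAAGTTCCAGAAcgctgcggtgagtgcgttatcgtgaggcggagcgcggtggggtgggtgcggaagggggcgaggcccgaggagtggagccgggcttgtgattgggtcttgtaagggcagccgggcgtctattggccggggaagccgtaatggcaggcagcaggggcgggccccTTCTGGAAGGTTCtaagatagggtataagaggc
HSP90AA1 (chr14:102087100-102087152, - strand): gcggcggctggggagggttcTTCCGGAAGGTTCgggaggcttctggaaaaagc
HSP90AB1 (chr6:44247758-44247863, + strand): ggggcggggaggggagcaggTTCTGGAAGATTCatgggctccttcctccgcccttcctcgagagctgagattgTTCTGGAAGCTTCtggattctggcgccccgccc
DNAJB6 (chr7:157336853-157336905, + strand): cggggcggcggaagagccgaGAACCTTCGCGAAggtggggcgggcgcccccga
CHORDC1 (chr11:90223067-90223129, - strand): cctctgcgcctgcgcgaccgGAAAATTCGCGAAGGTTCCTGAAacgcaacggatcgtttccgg
A match is a description of the letters and not a measured binding site. No changed base within a unit was allowed, and bases outside the windows were not searched. A member without a match may therefore still hold an element.

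*HSPA1A* and *HSPA1B*, the main stress-inducible HSP70 genes, held no run of 3 units in these windows but shared a run of 2, printed here because these are the members whose calls were kept in every fit without a library. The 2 windows were identical at 277 of 299 aligned bases (92.6%). A run of 2 units, GAANNTTC or TTCNNGAA on either strand, which every run of 3 also contains, was met by 21 of the 37 members (56.8%), against 16.2% of all genes with a window. The window of *HSPA1L* covers 241 bases of that of *HSPA1A*, so those genes are not separate cases.
HSPA1A (chr6:31815397-31815484, + strand): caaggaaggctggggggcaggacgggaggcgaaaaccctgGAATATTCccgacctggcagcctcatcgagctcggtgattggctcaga
HSPA1B (chr6:31827593-31827680, + strand): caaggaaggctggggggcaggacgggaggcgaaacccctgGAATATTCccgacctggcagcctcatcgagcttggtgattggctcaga

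Libraries held 13956648 to 17044139 counts, and no pair agreed within sampling noise. Pairs were compared by the squared difference of counts over its sampling variance, averaged over genes. This was 12.39 to 16.8 within S541 and 13.13 between DMSO replicates 1 and 3. DMSO replicate 2 lay further off, at 27.27 from DMSO replicate 1 and 24.42 from DMSO replicate 3. Between groups the values were 27.52 to 42.22. The sample labels name A549, whereas the text on the series' design speaks of retinal profiles. Of 5 retina markers, *SAG* and *CRX* had 0 counts in every library, and all 5 averaged under 1 CPM (counts scaled to a common library total) over the 6 libraries. Of 8 markers of A549, 5 were present, with 17479 to 31177 counts per library for *KRT8*, 8686 to 17326 for *KRT18*, 2272 to 4199 for *NQO1*, 191 to 709 for *AKR1C1* and 120 to 187 for *EPCAM*. The other 3 were near 0, with 0 to 2 counts for *ALDH1A1*, 10 to 16 for *AKR1B10* and 7 to 19 for *CDH1*. *CDKN2A*, which A549 is known to have lost by deletion, had 1881 to 4025 counts per library. It was looked at after its values were seen. The near-absence of these 3 markers and the presence of *CDKN2A* go against the A549 label. The presence of the other 5 markers does not settle the line, and the cells are called by their label only. The summed A549 markers were 2018 to 2276 CPM in S541 libraries and 2878 to 3188 CPM in DMSO libraries, with *KRT8* (log2 fold change −0.50, edgeR adjusted p = 0.0124) and *KRT18* (log2 fold change −0.63, edgeR adjusted p = 0.00750) lower. Surfactant markers (4 of 4) and leukocyte markers (3 of 4) averaged under 1 CPM. Of 5 markers of endothelium and stroma 3 did, with sums of 39.4 to 40.7 CPM in S541 libraries and 41.9 to 58.8 CPM in DMSO libraries. The part of these differences in the results was not tested.

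After S541, mRNAs of the inducible HSP70 pair, the constitutive HSP90 gene *HSP90AB1*, 2 J-domain proteins and 3 HSP90 co-chaperones were higher than after DMSO, by 1.26 to 1.58-fold, together with *HSPA13* and *BAG3*. *HSPA2*, *HSPB8* and *BAG1* were lower. Of 42 tested identifiers 10 rose (23.8%) and 3 fell (7.14%), where 4.02% of all 15847 tested genes rose and 4.17% fell, 8.19% in all (adjusted p under 0.05, edgeR quasi-likelihood test, Benjamini-Hochberg adjustment over all tested genes). The median log2 fold change was 0.24 over the members and −0.0019 over all tested genes. Of the members 31 lay above 0 and 11 below, where 49.8% of all tested genes lay above 0. No tested member changed 2-fold, and 3 reached 1.5-fold in either direction. In RNA of whole cultures, fewer cells with a transcript and less of it per cell cannot be told apart.

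In 22 members each S541 library lay above each DMSO library and in 6 each lay below, where 15.9% and 15.2% of all tested genes did so (31.1% in either direction). The members are abundant mRNAs, and 30 of them averaged at least 100 CPM. Of those 30, 8 rose, 2 fell and 26 lay above 0, against 4.83% of the 2443 genes at that level that rose, 7.04% that fell and 48.2% that lay above 0. As a share of all counts, the members took 1.64, 1.75 and 1.68% in S541 libraries, and 1.43, 1.33 and 1.34% in DMSO libraries. The number of calls changed with the libraries kept: without S541 replicate 1, 2 or 3 the number that rose was 2, 2 and 4, and without DMSO replicate 1, 2 or 3 it was 6, 7 and 3. The number that fell was 0, 0 and 1 without S541 replicate 1, 2 or 3, and 2, 3 and 0 without DMSO replicate 1, 2 or 3. Calls over all tested genes changed too, from 1298 to 375, 349 and 550 without S541 replicate 1, 2 or 3. They were 628, 1330 and 398 without DMSO replicate 1, 2 or 3, so this dependence was not particular to the members.

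**Figure D1:**
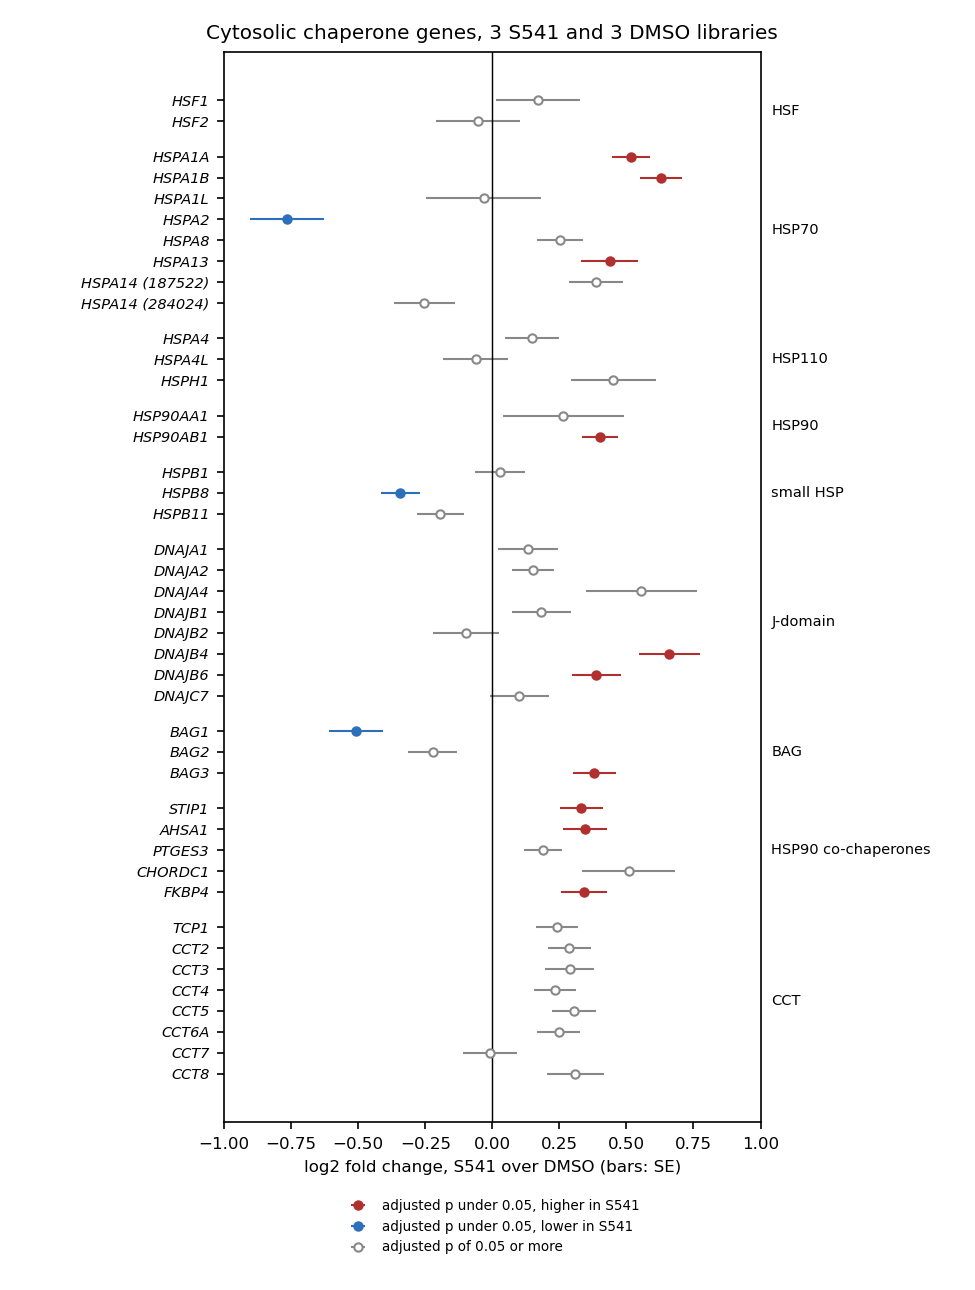
Log2 fold change of S541 over DMSO (x axis) for the 42 tested chaperone identifiers (y axis), grouped by role, with standard errors as bars. Filled points passed an adjusted p of 0.05: the 10 higher members lie to the right of 0 and the 3 lower members, HSPA2, HSPB8 and BAG1, to the left.

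The heat shock factors themselves did not pass the test (0 of 2 by edgeR, DESeq2 or limma-voom). An unadjusted p under 0.05, which 24.8% of all tested genes had (12.4% higher), was reached by 0 of the 2. *HSF1*, the main activator of the heat shock response, which is controlled mostly at the protein level, had 73.6, 62.5 and 85.5 CPM in S541 libraries, and 72.9, 70.6 and 53.4 CPM in DMSO libraries. The groups overlapped (log2 fold change 0.17 ± 0.156, SE; edgeR adjusted p = 0.557). *HSF2*, a related factor active in development, averaged 16.4 ± 3.21 CPM after S541 and 17.1 ± 0.0566 CPM after DMSO (SD, n = 3 each), and the groups overlapped as well.

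Among HSP70 genes, 3 of 8 tested identifiers rose and 1 fell. *HSPA1A* had 1424, 1486 and 1530 CPM in S541 libraries, and 1071, 1009 and 1024 CPM in DMSO libraries. *HSPA1B* had 240, 252 and 250 CPM in S541 libraries, and 162, 167 and 152 CPM in DMSO libraries. Both encode nearly the same protein, and for both each treated library lay well above each control library. The log2 fold change was 0.52 ± 0.0695 for *HSPA1A* (SE; edgeR adjusted p = 0.00747) and 0.63 ± 0.0769 for *HSPA1B* (edgeR adjusted p = 0.00554). Reads of near-identical copies can be split between them by counting, so their sum was also fitted. It was 1664, 1738 and 1780 CPM in S541 libraries, and 1233, 1176 and 1176 CPM in DMSO libraries (log2 fold change 0.53 ± 0.0681, SE; edgeR adjusted p = 0.00648). *HSPA1B* made up 14.42, 14.51 and 14.03% of the sum in S541 libraries and 13.11, 14.18 and 12.9% in DMSO libraries. Exons of another gene on the same strand, *AL671762.1*, overlap 36.5% of the exonic bases of *HSPA1B*, so its counts are uncertain to that extent. These were the members that passed in all 6 fits without a library, with adjusted p of 0.0118 to 0.041 for *HSPA1A* and 0.00743 to 0.0317 for *HSPA1B*.

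*HSPA8*, the constitutive cytosolic HSP70, had 1787, 1989 and 2104 CPM in S541 libraries, and 1733, 1659 and 1547 CPM in DMSO libraries. The groups did not overlap, but the difference did not pass the test (log2 fold change 0.25 ± 0.086, SE; edgeR adjusted p = 0.118). Levels of different genes were compared as CPM per kilobase of merged exons, since the deposited FPKM (fragments scaled to length and library total) imply other lengths, 1 to 2.91 times the exonic length and longer than the whole gene in 4 members. On that scale *HSPA1A* was the more abundant mRNA of the pair in every library, at 1.56, 1.46 and 1.42 times the level of *HSPA8* after S541, and 1.21, 1.19 and 1.29 times after DMSO. This order rests on the lengths used, 2483 exonic bases for *HSPA1A* and 4849 for *HSPA8*. By CPM, without length, *HSPA8* was the higher of the pair in every library. The inducible gene was not silent in the DMSO libraries, and the ratio was higher in each S541 library than in each of them. *HSPA6*, a strictly stress-inducible HSP70 gene whose window holds a run of 3 units, was close to absent. It had 6, 10 and 10 counts in S541 libraries, and 3, 2 and 6 counts in DMSO libraries, and was left out of the test by the filter on low counts. Its 26 summed counts after S541 and 11 after DMSO gave a ratio per total count of 2.53 (exact 95% interval 1.21 to 5.67, counting error only).

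*HSPA13*, an HSP70 relative bound to microsomes, had 64.6, 65.9 and 68.1 CPM in S541 libraries, and 54.8, 43.2 and 48.7 CPM in DMSO libraries. It was higher in each S541 library (log2 fold change 0.44 ± 0.107, SE; edgeR adjusted p = 0.0466), but passed only in the fit without DMSO replicate 1 (adjusted p = 0.0689 to 0.138 without any other library). *HSPA2*, best known for its part in sperm formation, had 10.3, 9.26 and 10.8 CPM in S541 libraries, and 15.5, 16.9 and 19.2 CPM in DMSO libraries. This was the largest decrease among the tested members (log2 fold change −0.77 ± 0.137, SE; edgeR adjusted p = 0.0177), and it did not pass without S541 replicate 1 or 2 or DMSO replicate 3 (adjusted p = 0.0694 to 0.0769). *HSPA1L*, a testis-enriched relative, averaged 6.59 ± 0.915 CPM after S541 and 6.75 ± 1.64 CPM after DMSO (SD, n = 3 each), and its groups overlapped. *HSPA14*, a ribosome-associated HSP70, is counted as 2 overlapping gene models, and their log2 fold changes had opposite signs. Under identifier ENSG00000187522 it averaged 35.9 ± 2.82 CPM after S541 and 27.5 ± 0.496 CPM after DMSO (SD, n = 3 each; log2 fold change 0.39, edgeR adjusted p = 0.0563, DESeq2 adjusted p = 0.041). Under identifier ENSG00000284024 it averaged 21.4 ± 1.53 CPM after S541 and 25.6 ± 2.05 CPM after DMSO (SD, n = 3 each; log2 fold change −0.25, edgeR adjusted p = 0.217). Their exons overlap, by 17.4% of the first model, so no direction is given for the gene.

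**Figure D2:**
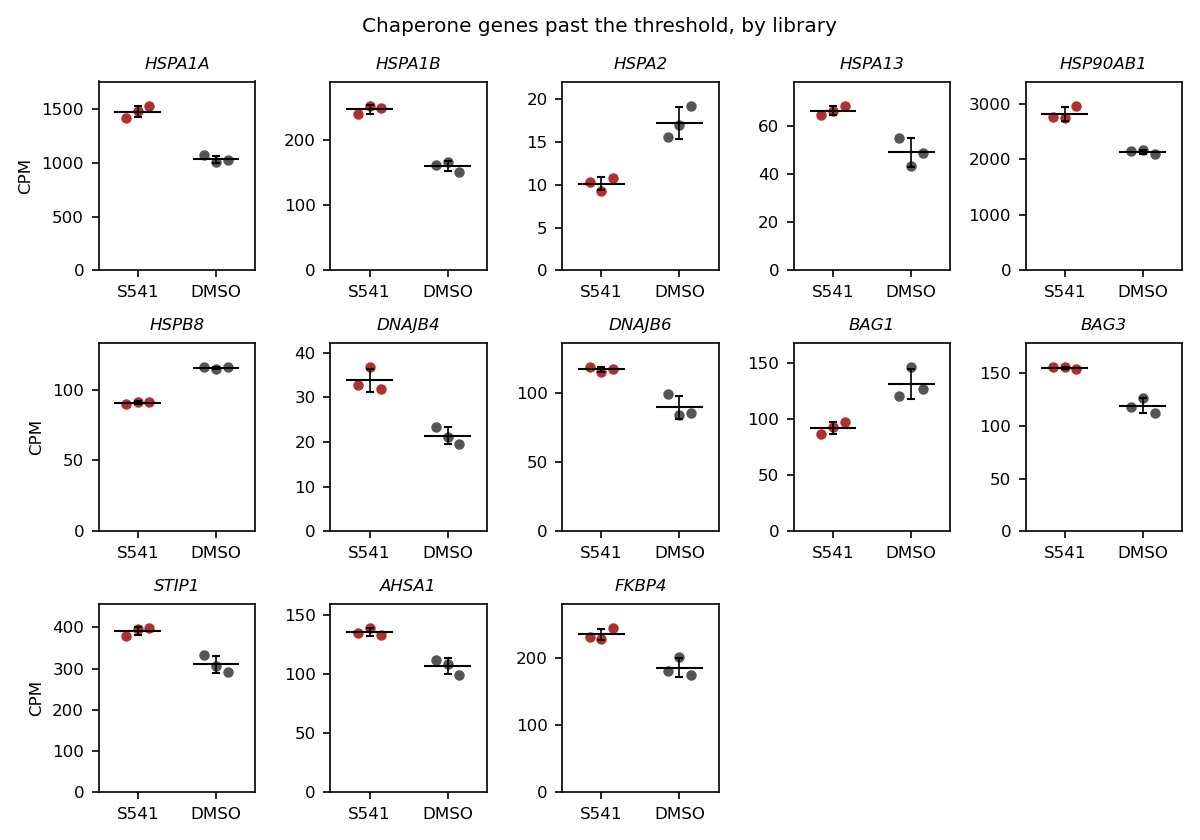
CPM (y axes, from 0) of the 13 chaperone genes past an adjusted p of 0.05 in 3 S541 and 3 DMSO libraries; points are libraries, lines are means and bars are SD. In each panel the points of the groups do not overlap, with HSPA1A at 1424 to 1530 CPM after S541 and 1009 to 1071 CPM after DMSO.

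HSP110 proteins are large relatives of HSP70 that exchange its nucleotide, and 0 of 3 passed by edgeR, DESeq2 or limma-voom, with *HSPH1* at an unadjusted p under 0.05. *HSPH1* had 279, 307 and 234 CPM in S541 libraries, and 220, 157 and 224 CPM in DMSO libraries. The groups lay close but apart (log2 fold change 0.45 ± 0.158, SE; edgeR adjusted p = 0.124). *HSPA4* (log2 fold change 0.15) and its relative *HSPA4L* (−0.06) overlapped between groups.

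The 2 cytosolic HSP90 genes differed in how their libraries spread. *HSP90AB1*, the constitutive form, had 2757, 2738 and 2955 CPM in S541 libraries, and 2143, 2163 and 2092 CPM in DMSO libraries. It was the member with the most counts, each S541 library was higher, and it rose (log2 fold change 0.40 ± 0.0668, SE; edgeR adjusted p = 0.0140). It did not pass without S541 replicate 1 or 2 or DMSO replicate 3 (adjusted p = 0.0502 to 0.0707). *HSP90AA1*, the inducible form, had 988, 1382 and 878 CPM in S541 libraries, and 1160, 664 and 880 CPM in DMSO libraries. The groups overlapped and the libraries differed up to 1.57-fold within S541 and 1.75-fold within DMSO, so that its log2 fold change of 0.26 had an SE of 0.226 (edgeR adjusted p = 0.527). Whether the 2 genes differ in their change was not tested. Per exonic kilobase, *HSP90AB1* was 4.91, 3.49 and 5.93 times as abundant as *HSP90AA1* after S541, and 3.25, 5.74 and 4.18 times after DMSO, with overlapping ranges.

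Of 3 small heat shock protein genes 1 fell and the others did not pass. *HSPB1* (HSP27), the most abundant of them, had 509, 518 and 580 CPM in S541 libraries, and 529, 565 and 482 CPM in DMSO libraries. The groups overlapped (log2 fold change 0.03 with a 95% interval of −0.18 to 0.24; edgeR adjusted p = 0.886). *HSPB8*, a partner of BAG3 in selective autophagy, had 89.9, 91.1 and 91.4 CPM in S541 libraries, and 116, 114 and 116 CPM in DMSO libraries. The libraries of each group lay within 1.02-fold of each other and the groups were apart (log2 fold change −0.34 ± 0.0732, SE; edgeR adjusted p = 0.0307), yet the call held only in the fit without DMSO replicate 2 (adjusted p = 0.0816 to 0.114 without any other library). *HSPB11*, an intraflagellar transport protein, averaged 40.9 ± 1.22 CPM after S541 and 46.8 ± 1.60 CPM after DMSO (SD, n = 3 each; log2 fold change −0.19, edgeR adjusted p = 0.215).

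J-domain proteins, which bring clients to HSP70 and start its ATPase, held 2 of 8 genes that rose. Of the 8 genes 7 lay above 0, where 49.8% of all tested genes did. *DNAJB4* had 32.7, 36.7 and 31.9 CPM in S541 libraries, and 23.4, 21.1 and 19.6 CPM in DMSO libraries. This was the largest increase among the tested members (log2 fold change 0.66 ± 0.115, SE; edgeR adjusted p = 0.0164), and it did not pass without S541 replicate 1 or 2 or DMSO replicate 3 (adjusted p = 0.0564 to 0.069). *DNAJB6*, known for suppressing aggregation of polyglutamine proteins, had 118, 115 and 117 CPM in S541 libraries, and 98.9, 83.6 and 85.3 CPM in DMSO libraries. It was higher in each treated library (log2 fold change 0.39 ± 0.0914, SE; edgeR adjusted p = 0.0420), but passed only in the fit without DMSO replicate 1 (adjusted p = 0.0680 to 0.139 without any other library). *DNAJA4* had 46.1, 45.5 and 45.6 CPM in S541 libraries, and 26.1, 24.2 and 43.0 CPM in DMSO libraries. DMSO replicate 3 lay next to the treated libraries, and the difference did not pass with it (log2 fold change 0.56 ± 0.207, SE; edgeR adjusted p = 0.145) but did without it (log2 fold change 0.87; adjusted p = 0.0229). *DNAJB1* (HSP40), the J-domain protein most tied to the heat shock response, averaged 229 ± 30.0 CPM after S541 and 202 ± 11.4 CPM after DMSO (SD, n = 3 each; log2 fold change 0.18, edgeR adjusted p = 0.357). The log2 fold changes of *DNAJA1* and *DNAJA2*, general partners of HSP70, were 0.13 and 0.15, that of *DNAJC7*, which also binds HSP90, was 0.10, and that of *DNAJB2*, a neuronal form that binds ubiquitin, was −0.10. None of these 4 passed by edgeR, DESeq2 or limma-voom, and 0 of them had an unadjusted p under 0.05.

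BAG proteins release clients from HSP70, and here members of the family went in opposite directions. *BAG3*, which routes clients to autophagy, had 155, 156 and 154 CPM in S541 libraries, and 118, 127 and 112 CPM in DMSO libraries. *BAG1*, which links HSP70 to the proteasome, had 86.7, 92.6 and 97.7 CPM in S541 libraries, and 120, 146 and 127 CPM in DMSO libraries. Each treated library was higher for *BAG3* (log2 fold change 0.38 ± 0.0799, SE; edgeR adjusted p = 0.0297) and lower for *BAG1* (log2 fold change −0.51 ± 0.101, SE; edgeR adjusted p = 0.0245). The level of *BAG3* per exonic kilobase was 4.61, 4.33 and 4.05 times that of *BAG1* after S541, and 2.53, 2.23 and 2.27 times after DMSO. These ratios rest on the lengths used, 2747 exonic bases for *BAG3* and 7073 for *BAG1*. By CPM, without length, *BAG3* was above *BAG1* in each S541 library and below it in each DMSO library. *BAG3* passed only in the fit without DMSO replicate 2 (adjusted p = 0.0782 to 0.109 without any other library). *BAG1* did not pass without any S541 library or without DMSO replicate 3 (adjusted p = 0.0550 to 0.096). *BAG2*, an inhibitor of the ubiquitin ligase CHIP, averaged 102 ± 8.81 CPM after S541 and 119 ± 5.24 CPM after DMSO (SD, n = 3 each; log2 fold change −0.22, edgeR adjusted p = 0.183). Genes on the other strand, among them *RAB23*, overlap 44.2% of its exonic bases, and whether counting used the strand is not stated in the labels or headers.

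Of 5 HSP90 co-chaperones 3 rose, and all 5 lay above 0, where 49.8% of all tested genes did. *STIP1* (HOP), which hands clients across from HSP70 to HSP90, had 379, 396 and 398 CPM in S541 libraries, and 334, 306 and 292 CPM in DMSO libraries. *AHSA1*, the activator of the HSP90 ATPase, had 135, 139 and 133 CPM in S541 libraries, and 112, 109 and 99.1 CPM in DMSO libraries. *FKBP4* (FKBP52), an immunophilin of steroid receptor complexes, had 233, 229 and 245 CPM in S541 libraries, and 181, 202 and 175 CPM in DMSO libraries. In all 3 genes the groups were apart by a like amount, with log2 fold changes of 0.33 ± 0.0803 for *STIP1*, 0.34 ± 0.0820 for *AHSA1* and 0.34 ± 0.0851 for *FKBP4* (SE). The edgeR adjusted p was 0.0455 for *STIP1*, 0.0433 for *AHSA1* and 0.0493 for *FKBP4*, close to the threshold. Without any 1 of the 6 libraries *STIP1* (adjusted p = 0.0614 to 0.152) and *AHSA1* (0.053 to 0.142) did not pass, and *FKBP4* passed only without DMSO replicate 2 (0.117 to 0.158 without any other). Exons of other-strand genes overlap 11.4% of *FKBP4*. *CHORDC1* (morgana), whose window holds a long run of units, had 169, 187 and 134 CPM in S541 libraries, and 135, 89.8 and 120 CPM in DMSO libraries. The groups overlapped by S541 replicate 3 and DMSO replicate 1 (log2 fold change 0.51 ± 0.173, SE; edgeR adjusted p = 0.116, DESeq2 adjusted p = 0.0482). *PTGES3* (p23) averaged 369 ± 9.42 CPM after S541 and 323 ± 9.47 CPM after DMSO (SD, n = 3 each; log2 fold change 0.19, edgeR adjusted p = 0.150), and pseudogenes named after it held counts equal to 6.09% of its own.

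**Figure D3:**
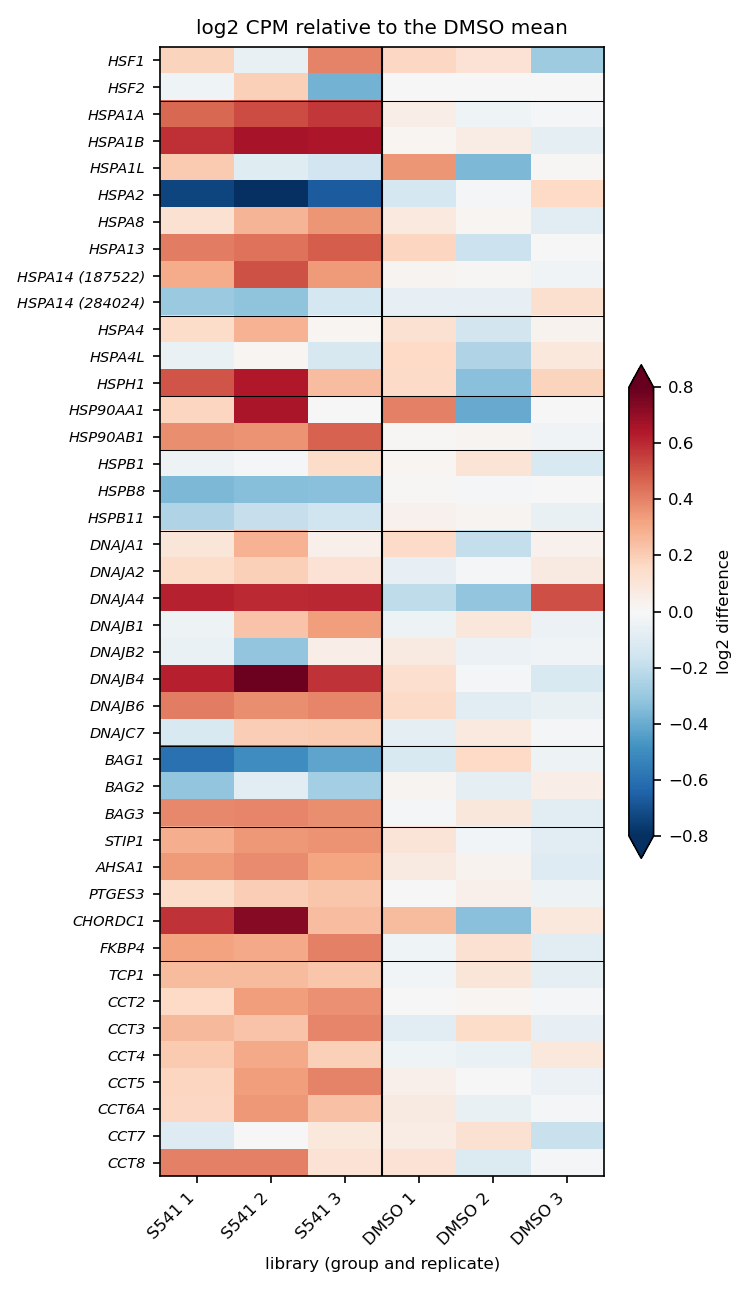
Log2 CPM of each tested chaperone identifier (rows, in the order of roles) relative to its DMSO mean in the 3 S541 and 3 DMSO libraries (columns); the colour scale gives the log2 difference. Most rows are above the DMSO mean in all S541 columns, and HSPA2, HSPB8 and BAG1 are below it; HSP90AA1, HSPH1 and CHORDC1 are highest in S541 replicate 2 and lowest in DMSO replicate 2.

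The chaperonin CCT (TRiC) is a ring of 8 different subunits, and none of its mRNAs passed the test. The log2 fold changes of 7 of them lay between 0.23 and 0.31, and that of *CCT7* was −0.01. By edgeR and by limma-voom 0 of 8 passed, 7 of 8 were higher at an unadjusted p under 0.05, where 12.4% of all tested genes were, and DESeq2 called *CCT5* alone (adjusted p = 0.0452). *CCT5* had 1373, 1534 and 1604 CPM in S541 libraries, and 1253, 1222 and 1177 CPM in DMSO libraries. *CCT2* had 363, 410 and 419 CPM in S541 libraries, and 324, 329 and 323 CPM in DMSO libraries. *CCT3* had 807, 790 and 884 CPM in S541 libraries, and 638, 748 and 644 CPM in DMSO libraries. In these 3, as in *TCP1*, *CCT4* and *CCT6A*, each S541 library lay above each DMSO library. The log2 fold change was 0.30 ± 0.081 for *CCT5* (SE; edgeR adjusted p = 0.0595), 0.29 ± 0.0815 for *CCT2* (adjusted p = 0.0717) and 0.29 ± 0.0914 for *CCT3* (adjusted p = 0.0958; 0.0392 without DMSO replicate 2). The other log2 fold changes were 0.24 for *TCP1*, 0.23 for *CCT4*, 0.25 for *CCT6A* and 0.31 for *CCT8*, with edgeR adjusted p of 0.102 to 0.122.

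*CCT7* stood apart from the other subunits in its values, with 462, 496 and 526 CPM in S541 libraries, and 516, 540 and 438 CPM in DMSO libraries. Its groups overlapped (log2 fold change −0.01 with a 95% interval of −0.24 to 0.22; edgeR adjusted p = 0.974), and its difference from the other subunits was not tested. In the protein each ring holds 1 copy of every subunit, and the levels of their mRNAs per exonic kilobase differed widely. *CCT5* averaged 257.5 ± 20.3 CPM per kilobase after S541 and 208.5 ± 6.54 after DMSO, while *TCP1* averaged 48.7 ± 0.691 CPM per kilobase after S541 and 41.2 ± 2.51 after DMSO (SD, n = 3 each). The order on this scale was *CCT5*, *CCT3*, *CCT6A*, *CCT4*, *CCT7*, *CCT2*, *CCT8* and *TCP1*. *CCT4* exceeded *CCT7* and *CCT2* exceeded *CCT8* in 4 of 6 libraries, *CCT3* exceeded *CCT6A* in 5 of 6, and the remaining neighbours kept their order in 6 of 6. The order rests on the lengths used: by the deposited FPKM *CCT3* came after *CCT6A* and *CCT4*, and the other 5 kept their places. The level of *CCT5* was 4.79, 5.35 and 5.73 times that of *TCP1* after S541, and 5.30, 4.76 and 5.16 times after DMSO, with no separation of the groups. An other-strand gene overlaps 30.1% of the exonic bases of *CCT5*, 12.6% of *CCT4* are overlapped likewise, and *TCP1* has 11.1% overlapped by genes on either strand.

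**Figure D4:**
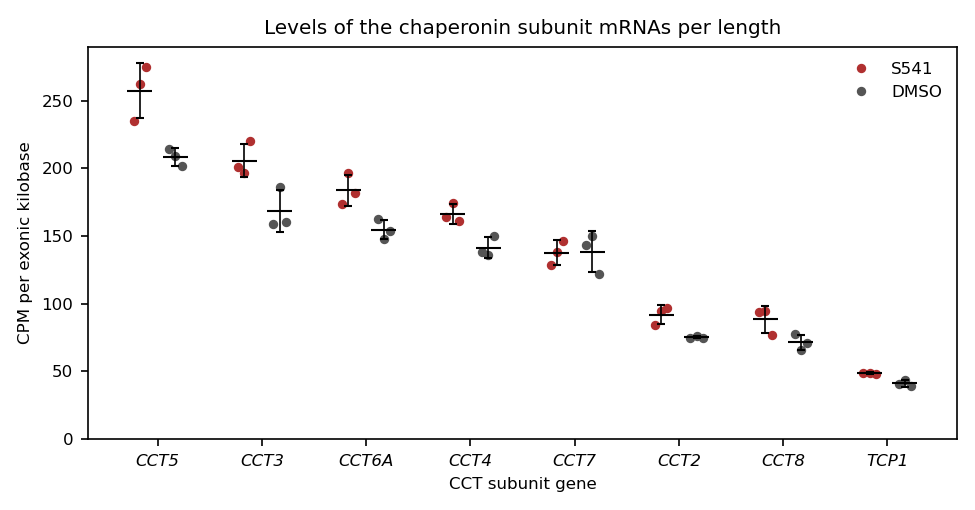
CPM per exonic kilobase (y axis, from 0) of the 8 chaperonin subunit mRNAs (x axis, from highest to lowest) in 3 S541 and 3 DMSO libraries; points are libraries, lines are means and bars are SD. CCT5 averaged 257.5 CPM per kilobase after S541 and 208.5 after DMSO, TCP1 48.7 after S541 and 41.2 after DMSO, and the CCT7 points of the groups overlap.

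Summed over each role as CPM per exonic kilobase, chaperonin genes reached 1181 ± 44.6 after S541 and 999.7 ± 24.0 after DMSO (SD, n = 3 each). HSP90 genes summed to 1152 ± 35.0 after S541 and 887 ± 46.5 after DMSO, and HSP70 genes, without the second *HSPA14* model, whose coordinates differ in the annotation, to 1132 ± 57.2 after S541 and 847.5 ± 32.2 after DMSO. HSP90 co-chaperones summed to 299 ± 5.09 after S541 and 245 ± 9.70 after DMSO. In these 4 roles the libraries of the groups did not overlap, and no order among the first 3 is given, since it rests on the lengths used. J-domain genes summed to 235 ± 14.1 after S541 and 208 ± 9.34 after DMSO, and their libraries were narrowly apart as well. Small heat shock proteins summed to 372 ± 24.4 after S541 and 376 ± 25.9 after DMSO, with overlapping libraries. The sums of heat shock factor, HSP110 and BAG genes overlapped too. No test was made on these sums.

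Of the members with a run of 3 units in the window, 2 rose (*HSP90AB1* and *DNAJB6*, of 9 risen members with a window) and 5 did not pass or were not tested (of 25). None of the 3 members that fell held such a run. With a run of 2 units the numbers were 6 of 9 risen members, 1 of 3 fallen and 14 of the other 25. In a pattern picked out after the values were seen, 8 members were highest in S541 replicate 2 and lowest in DMSO replicate 2. They were *HSPA4*, *HSPH1*, *HSP90AA1*, *DNAJA1*, *CHORDC1*, *CCT4*, *CCT6A* and *CCT8*, and none of them passed (edgeR adjusted p of 0.102 to 0.527), with DESeq2 calling *CHORDC1*. The share of all tested genes with this pattern was not counted, so it is not given as a trait of the members. Within a group the highest library exceeded the lowest by a median of 1.14-fold over the members, after S541 as after DMSO.

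In the authors' deposited table, which holds their own edgeR comparison, 5 members had a Q-value under 0.05: *HSPA1A*, *HSPA1B*, *HSPA2*, *DNAJB4* and *BAG1*. All 5 were also called here, in the same direction. The other members called here did not reach that threshold in the authors' comparison. They were *HSP90AB1*, *HSPA13*, *BAG3*, *DNAJB6*, *HSPB8*, *FKBP4*, *STIP1* and *AHSA1*, with Q-values from 0.062 (*HSP90AB1*) to 0.202 (*AHSA1*).

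Other chaperone and protein turnover genes were counted from lists of fixed membership, against the 4.02% of tested genes that rose. Of 20 other J-domain genes 1 rose, *DNAJC12*, with 14.4, 14.6 and 14.6 CPM in S541 libraries, and 10.6, 8.94 and 9.31 CPM in DMSO libraries (log2 fold change 0.60 ± 0.127, SE; edgeR adjusted p = 0.0303). The list's median log2 fold change was 0.03, and the call was lost without any 1 library (adjusted p = 0.0525 to 0.110). Of 25 other co-chaperones 1 rose, *SGTB*, with 13.7, 14.6 and 10.8 CPM in S541 libraries, and 8.57, 7.92 and 7.86 CPM in DMSO libraries (log2 fold change 0.68 ± 0.155, SE; edgeR adjusted p = 0.0369; median of the list 0.07). It passed only in the fit without S541 replicate 3 (adjusted p = 0.0664 to 0.130 without any other library). Of 17 prefoldin and tubulin cofactor genes, which feed the chaperonin or act after it, 1 rose. This was *PFDN2*, a prefoldin subunit, with 118, 130 and 123 CPM in S541 libraries, and 89.3, 81.8 and 82.4 CPM in DMSO libraries (log2 fold change 0.55 ± 0.0835, SE; edgeR adjusted p = 0.0105; median of the list 0.11). It did not pass without S541 replicate 2 (adjusted p = 0.0512).

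Chaperones of organelles held 2 risen genes of 11 (median log2 fold change of the list 0.19). *HSPA5* (BiP), the HSP70 of the endoplasmic reticulum, had 1475, 1443 and 1443 CPM in S541 libraries, and 1015, 969 and 1007 CPM in DMSO libraries (log2 fold change 0.54 ± 0.0657, SE; edgeR adjusted p = 0.00526). *HSPD1* (HSP60), the mitochondrial chaperonin, had 778, 851 and 744 CPM in S541 libraries, and 650, 642 and 619 CPM in DMSO libraries (log2 fold change 0.31 ± 0.0783, SE; edgeR adjusted p = 0.0499). The libraries did not overlap in either gene, and *HSPD1* lost its call without any 1 library (adjusted p = 0.0685 to 0.162). Of 31 proteasome subunit genes 26 lay above 0 (median 0.15), where 49.8% of all tested genes did. Of the 31 genes 1 rose, the ATPase subunit *PSMC4*, with 186, 199 and 207 CPM in S541 libraries, and 155, 164 and 150 CPM in DMSO libraries. Its log2 fold change was 0.34 ± 0.0815 (SE; edgeR adjusted p = 0.0443), and it passed only in the fit without DMSO replicate 2 (adjusted p = 0.0851 to 0.145 without any other library).

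Of 8 other heat-inducible genes 7 lay above 0 (median 0.28, range −0.04 to 0.69), where 49.8% of all tested genes did. In 3 of the 8 each S541 library lay above each DMSO library, where 15.9% of all tested genes did so. By edgeR or limma-voom 0 passed and by DESeq2 1, and 2 of 8 had an unadjusted p under 0.05, where 24.8% of all tested genes did. The most abundant was *SQSTM1*, the autophagy receptor p62, with 826, 811 and 1026 CPM in S541 libraries, and 736, 930 and 720 CPM in DMSO libraries (log2 fold change 0.16, edgeR adjusted p = 0.516). Of 7 other small heat shock genes only *HSPB7*, a muscle form, was tested, and its log2 fold change was −0.48 (edgeR adjusted p = 0.147; unadjusted p under 0.05, and 0 called by DESeq2 or limma-voom).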

How the data were processed

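RNA-seq was made from 3 S541 and 3 DMSO libraries. The authors deposited whole-number counts per gene, used here unchanged, and FPKM values (per the file headers), whose implied lengths were a median of 1.55 times the merged exons of GENCODE release 29. Levels between genes were therefore compared as CPM per kilobase of merged exons, a choice made after seeing the data. Their deposited log2 fold change, p-value and Q-value are quoted once. The build is hg38 and edgeR was used, per the submitters' processing notes. The tools for alignment and counting, and the strand setting, were not given in the sources used here. Libraries were grouped by their titles.

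The fit to the counts used edgeR 4.0.16 and R 4.3.3 (TMM scaling, filterByExpr, group as the only term, quasi-likelihood test, Benjamini-Hochberg over 15847 genes). CPM are TMM-scaled. A gene rose or fell where its adjusted p was under 0.05. The scripts were tested on simulated data. Alternatives were DESeq2 1.42.0, its size factors in edgeR, limma-voom (limma 3.58.1), other filters, robust estimation, summing *HSPA1A* and *HSPA1B*, a replicate block and leaving out each library. Exon overlap was taken from GENCODE release 29, in which 42 of 43 identifiers had the same coordinates. Promoters are from RefSeq, GRCh38.p14, searched with Python 3.11.15.

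The members and lists were chosen with earlier results of these data known. Every member is described; each other list names up to 4 genes past the threshold, or the 2 most abundant where none passed. *CDKN2A* was added after its values were seen. A gene of the other lists that this rule for names would give is not reported here.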

Additional observations from a re-analysis of the deposited data

How the results depend on the processing

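Of the 13 calls, *HSPA1A* and *HSPA1B* held in every fit without a library; no called member changed sign. The number of members that rose was 10, and 9 to 13 with DESeq2, limma-voom, other scaling, robust estimation, a stricter filter or the summed HSP70 pair; it was 4 with no filter on low counts and 2 to 7 without 1 library. The 3 that fell became 0 to 3 without 1 library. The 6 risen genes of the other lists became 2 with no filter and 1 to 7 without 1 library. With no filter *HSPA13*, *HSPB8*, *DNAJB6*, *BAG3*, *STIP1*, *AHSA1* and *FKBP4* did not pass (adjusted p of 0.0607 to 0.100), since 30834 genes were tested; *FKBP4* also missed with DESeq2's size factors (0.0531). Counts over all genes were 1298, 753 with no filter, 1790 with DESeq2 and 349 to 1330 without 1 library. Counting runs of 2 units instead of 3 gave 56.8% of members instead of 18.9%. Ratios between genes after S541 moved with the deposited FPKM, an alternative chosen after seeing the data: 6.27 instead of 4.33 for *BAG3* over *BAG1*, 2.44 instead of 1.48 for *HSPA1A* over *HSPA8*, 6.20 instead of 4.78 for *HSP90AB1* over *HSP90AA1* and 6.52 instead of 5.29 for *CCT5* over *TCP1*. Same-numbered libraries did not clearly deviate together (correlations 0.109, −0.0515 and −0.058, against −0.128 to 0.169 for the other pairs). Such values from 3 libraries per group cannot exclude that libraries of the same number shared a batch. With a replicate block 1 member rose (*HSPA1B*, edgeR adjusted p = 0.0385), 0 fell, 2 genes of the other lists rose and 392 genes changed in all. Counting error limits *HSPA6*, which had at most 10 counts in a library.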
